A study of Picea abies with 36 samples.

Results

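A group of 150 genes of the Norway spruce (Picea abies) hypocotyl was low after 5 days of auxin, lay near the mock level again after 15 days and differed little from mock under cytokinin. The genes were chosen on exactly these values. Levels are given as CPM, the count of a gene scaled to the total count of its library, and L denotes the log2 ratio of the mean CPM of a treatment plus 1 to the mean CPM of the mock of the same day plus 1. A gene qualified when L under the auxin indole-3-acetic acid (IAA) was at most -1 on day 5 and below 0.5 in size on day 15, and when L under the cytokinin 6-benzylaminopurine (BAP) was below 0.5 in size on days 5, 10 and 15. Of the 70736 genes in the table, 227 met every threshold, and the 150 with the lowest day 5 value were kept. The early fall, the later return and the lack of a BAP response are therefore how these genes were found, not results. The rule used no library of IAA at day 10 and none of the combined BAP+IAA treatment, and the tests given here concern those libraries. Mock libraries of days 10 and 15, against which they were tested, did enter the rule through the bounds on IAA and BAP.

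Wild-type seedlings of the seed source FP-518 TreO G7 Söregärde carried a lanolin paste under aluminium foil at the middle of the hypocotyl, which is the stem beneath the cotyledons. The paste was made with 50 mM IAA, 135 mM BAP, both hormones (BAP+IAA), or neither (mock), and tissue was taken at day 5, 10 or 15. Hormone dissolved in ethanol was mixed into lanolin, and the concentration reached in the paste is not stated. The 36 libraries fall into 12 groups of 3, named biological replicates in the methods and each made from several plants pooled. The BAP dose is written in mM in the labels and the methods but in µM in a figure legend of the study, so the dose applied is uncertain.

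Auxin is perceived by nuclear receptors that mark Aux/IAA repressor proteins for degradation, which frees the auxin response factors to change transcription. Auxin moves down the stem from the shoot, promotes cambial division and vascular differentiation, and acts together with cytokinin in the cambium and in callus. Many of the early auxin targets known from Arabidopsis are induced, among them the Aux/IAA genes themselves.

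Few of the 150 genes carried a description. Descriptions were available for 3950 genes, mostly ones listed for being higher under hormone or at graft junctions. Among them were 2 of the 150: MA_111099g0010 as an ABC transporter of the B family and MA_10435934g0010 as an MLO homolog. ABC transporters of the B family move substrates across membranes with energy from ATP, and several of them carry auxin in Arabidopsis. MLO proteins are membrane proteins best known from barley, where loss of MLO gives resistance to powdery mildew. A further 3 genes, MA_18818g0010, MA_10434396g0010 and MA_10431641g0010, were listed as unknown, and for the rest no name was used here. None of the 150 belonged to the lists of laccases (0 of 72 genes), pectin methyl esterases (0 of 63), beta-1,4-glucanases (0 of 23), pectate and pectin lyases (0 of 37) or graft transcription factors (0 of 64). Lists made by keyword from the same descriptions, such as auxin and cytokinin signalling (56 genes), cell wall (266) and defence (167), also held 0 of them, and the transport list (154) held the ABC transporter alone. Since most described genes were selected for being higher, these counts say nothing about which functions the 150 genes have. No pair of the 150 shared the first part of a gene ID, and 20 of them (13.3%) shared it with another gene of the table, as did 25.1% of all genes.

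Total counts ranged from 13188942 to 23110495 per library, and 40720 to 43696 genes had a count. Of all genes, 38732 passed edgeR's filter on low counts, among them all 150. The mean level of the 150 genes over all libraries ran from 0.275 to 1860 CPM with a median of 10.5, against 5.95 for all genes tested. The coefficient of variation between the 3 libraries of a group, as a median over the 150 genes, was 11.9% to 18.5% and was highest in IAA at day 5. Markers of stem tissues were detected in every group: PaAPL-like for phloem, PaVND4-like and PaPRX66-like for xylem, and PaCDKB2;2-like for dividing cells. Calls below are from edgeR's quasi-likelihood F-test across all genes at a Benjamini-Hochberg adjusted p below 0.05, either alone (at any fold) or together with a change of over 2-fold. Counts at any fold and medians were added after the data were seen. In these bulk samples fewer cells of a type and less RNA per cell cannot be told apart.

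The values the rule used were as follows. Under IAA at day 5, L ran from -3.35 to -1.08 with a median of -1.21 (8.6% of all genes tested were at or below -1 and 20.9% at or below -0.5), and all 3 IAA libraries lay below all 3 mock libraries for 147 of the 150 genes (27.7% of all genes tested). At day 15 the median was -0.25, and under BAP it was -0.22, -0.08 and -0.06 on days 5, 10 and 15. The genes took 0.832% to 0.953% of all counts in the mock libraries and 0.279% to 0.328% in IAA at day 5. MA_10427495g0010 was the last gene kept (-1.0779) and MA_959896g0010 the first left out (-1.0762). For 36 genes L under IAA at day 5 went above -1 when a single library of that contrast was left out. In 2 of these it went above -0.5 without a single mock library: MA_473307g0010, whose mock counts on day 5 were 81, 0 and 0, and MA_10427495g0010, with 2.31, 12.9 and 4.45 CPM.

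**Figure D1:**
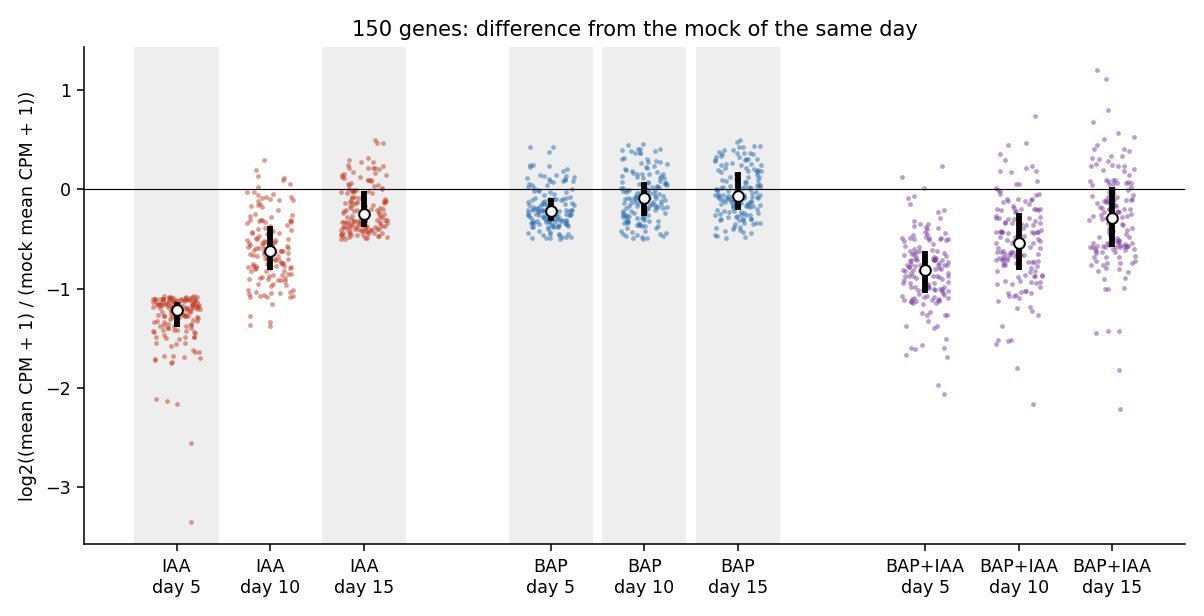
Each point is 1 of the 150 genes, and the vertical axis is L, the log2 ratio of mean CPM plus 1 in a treatment to that in the mock of the same day. White circles are medians, thick bars span the middle 50% of the genes, and grey shading marks the groups that the rule used; the median under IAA goes from -1.21 through -0.62 to -0.25 and that under BAP+IAA from -0.81 through -0.54 to -0.28.

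The first question was whether the genes were still low at day 10 of IAA. They were: 93 of the 150 were lower than in the mock and 0 were higher (18.5% and 20.4% of all genes tested were called in these directions), and 28 of them were lower by over 2-fold and 0 higher (8.63% and 10.1% of all genes). The median fitted log2 fold change was -0.64, against 0.01 over all genes tested. All 3 IAA libraries lay below all 3 mock libraries for 112 genes (26.4% of all genes). Without 1 library at a time, 69 to 81 genes were lower, and at an adjusted p below 0.01 there were 59. At an unadjusted p below 0.05, 105 were lower and 0 higher (22.3% and 24.2% of all genes), and DESeq2 also called 0 higher. At day 10, L was at or below -1 for 18 genes (6.25% of all genes), between -1 and -0.5 for 82 and above -0.5 for 50; 100 genes were thus at or below -0.5 (17.9% of all genes).

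The 75 genes with lower mean levels held 26 of the 28 that were lower by over 2-fold, whereas the calls at any fold were 47 in that group and 46 in the 75 with higher levels. The median log2 fold change was -0.85 in the former and -0.53 in the latter. Because L adds 1 CPM to both means, a gene of low level needed a larger fold change at day 5 to meet the rule. Estimates of genes with few counts are also less precise, and the parts of the rule and of depth in this difference were not tested.

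MA_120345g0010 had the lowest L at day 5 and the highest CPM in mock at day 5 of the 150. Its level in mock at day 10 was 2807, 3076 and 2794 CPM. Under IAA it was 252, 360 and 209 CPM at day 5, then 1084, 1170 and 1090 at day 10 and 1802, 1859 and 2608 at day 15. The IAA libraries at day 10 lay between those of days 5 and 15 and below every mock library, with a log2 fold change of -1.32 ± 0.20 against mock (SE, n = 3 per group, edgeR adjusted p = 6.7e-06). MA_10436348g0010, second in mock CPM at day 5, was not called at day 10. Its mock libraries at day 10 held 707, 714 and 612 CPM and the IAA libraries 598, 669 and 666, which overlap, where IAA at day 5 had been 260, 399 and 399. At day 10 the log2 fold change was -0.02 ± 0.17 (edgeR adjusted p = 0.95).

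The largest falls at day 10 of IAA among genes with a mean of at least 1 CPM were in 2 genes of low level. MA_129306g0010 had counts of 1, 3 and 4 in IAA at day 10 against 35, 11 and 45 in mock, a log2 fold change of -3.55 ± 0.65 (edgeR adjusted p = 7.1e-05). MA_103506g0010 had 0.897, 0.275 and 0 CPM under IAA and 1.18, 2.14 and 3.78 in mock, a log2 fold change of -2.62 ± 0.74 (edgeR adjusted p = 0.0056), which became -4.03 without IAA replicate 1. In both genes the groups did not overlap. MA_100154g0010, which is below that level and was singled out after its values were seen, had 1 count in IAA and 26 in mock at day 10, a ratio of 0.0345 with an exact 95% interval of 0.000841 to 0.21 that covers counting error only. MA_473307g0010 had 0 counts in IAA at day 10 and 19 in mock. Set at a floor of 3 counts over the group, the summed counts are at least 7.06-fold lower. That figure leaves out counting error and the spread between libraries, and the gene was not called (edgeR adjusted p = 0.11).

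The mean level of the ABC transporter MA_111099g0010 was higher on each later day in every treatment. In mock it was 14.3, 15.4 and 27.6 CPM at day 5, 26.7, 46.8 and 32.6 at day 10 and 62.5, 53.7 and 52.9 at day 15. Under IAA it was 1.25, 2.86 and 3.11 CPM at day 5, 18.1, 27.9 and 16.1 at day 10 and 55.3, 81.4 and 70.9 at day 15. The groups overlapped at day 10, and the log2 fold change of -0.72 ± 0.35 was not called (edgeR adjusted p = 0.11). The MLO homolog MA_10435934g0010 was 54.2, 56.1 and 60.4 CPM in mock at day 10 and 47.0, 48.7 and 44.2 under IAA. These groups did not overlap, but the log2 fold change of -0.23 ± 0.19 was not called either (edgeR adjusted p = 0.36).

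**Figure D2:**
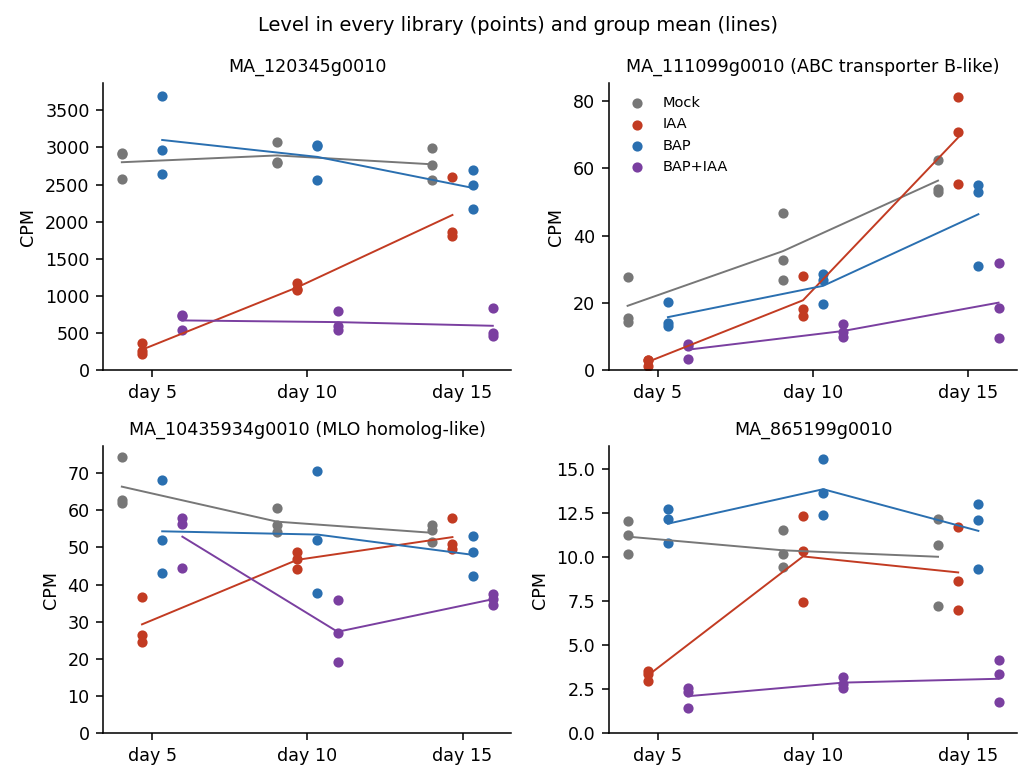
The vertical axes are CPM and the horizontal axes days after treatment; points are the 3 libraries of a group and lines join the group means. MA_120345g0010 goes from 252, 360 and 209 CPM under IAA at day 5 towards the mock but stays between 457 and 833 CPM in every BAP+IAA library, and MA_865199g0010 is between 1.43 and 4.16 CPM in every BAP+IAA library.

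How the difference closed between day 5 and day 15 was next described from the group means, as log2(CPM + 1), without a test, because these means entered the rule. L was higher on each later day in 136 of the 150 genes. As a median over the genes, the share of its rise from day 5 to day 15 that lay before day 10 was 0.65, and in 103 genes the share was at least 0.5. In 135 genes the level under IAA was higher at day 15 by more than the mock level was lower, and in 15 the fall in mock was at least as large. The median change was 0.95 under IAA (0.04 over all genes with a group mean of at least 1 CPM) and -0.15 in mock (-0.0006 over those genes). The level under IAA was lower at day 15 than at day 5 in 2 genes.

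The mock level itself changed by under 0.5 in 118 genes, was lower by at least 0.5 in 19 and higher by at least 0.5 in 13. Among the 13 genes that were higher in the later mock samples were the ABC transporter, MA_103506g0010, MA_8590327g0010, MA_10430194g0010 and MA_181g0010. For them IAA at day 5 lay below a mock level that was itself below that of day 15. MA_129306g0010 was among the 19 genes that were lower in later mock samples, with counts of 57, 54 and 51 at day 5 and 16, 18 and 9 at day 15. Its counts under IAA were 1, 0 and 0 at day 5 and 19, 24 and 14 at day 15.

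**Figure D3:**
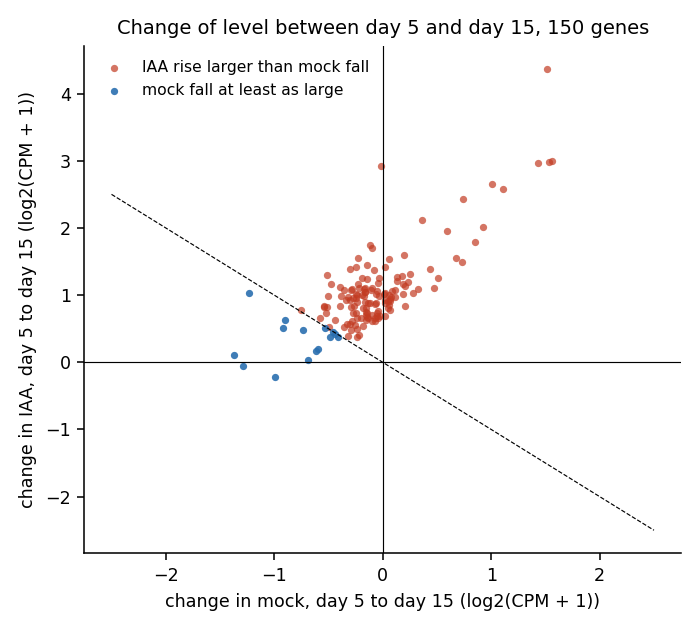
Each point is 1 of the 150 genes; the horizontal axis is the change of the mean level in mock from day 5 to day 15 and the vertical axis the same change under IAA, both in log2(CPM + 1). On the dashed line a fall in mock equals a rise under IAA; 135 genes lie above it (red) and 15 on or below it (blue), and the genes at the upper right, among them the ABC transporter at 4.37 under IAA, were higher at day 15 in both.

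The combined treatment was next compared with mock, which gives the effect of both hormones together. The effect of auxin in the presence of cytokinin, BAP+IAA against BAP, was not tested. At day 5, where the mock libraries had chosen the genes and no test is given, L under BAP+IAA had a median of -0.81, with 46 genes at or below -1 (7.53% of all genes). All 3 BAP+IAA libraries lay below all 3 mock libraries for 127 genes (25.3% of all genes tested) and above them for 0. L was at or below -0.5 in 122 genes (18% of all genes). The mean under BAP+IAA was above that of IAA and below that of mock in 139 genes. The IAA and mock libraries of day 5 had both chosen the genes, so this order is partly built in. At day 10, where no IAA library entered the rule, the mean under BAP+IAA was between the same means in 70 of the 150 genes. MA_120345g0010 was 724, 745 and 535 CPM under BAP+IAA at day 5, above the IAA libraries and far below the mock libraries of 2921, 2912 and 2569. The MLO homolog was 56.2, 44.4 and 57.9 CPM, against 62.0, 62.6 and 74.4 in mock and 36.7, 26.5 and 24.6 under IAA.

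At day 10, 84 of the 150 genes were lower under BAP+IAA than in mock and 1 was higher (21.8% and 22.4% of all genes), and 32 were lower and 0 higher by over 2-fold (11.5% and 10% of all genes). The median log2 fold change was -0.64, against 0.003 over all genes. L was at or below -0.5 in 80 genes (19.1% of all genes) and at or below -1 in 21 (8.14%). The libraries did not overlap, in the lower direction, for 97 genes (26% of all genes) and in the higher direction for 3 (26.4%). The gene called higher was MA_6148761g0010, which lost that call without any of mock replicate 3, BAP+IAA replicate 2 or BAP+IAA replicate 3 at day 10. Without mock replicate 1, 1 gene was higher by over 2-fold. At an unadjusted p below 0.05, 97 were lower and 2 higher (25% and 25.6% of all genes), and DESeq2 called 2 higher at any fold.

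At day 15, 56 genes were lower and 4 higher than in mock (21.4% and 22.5% of all genes), with 15 lower and 2 higher by over 2-fold (11.2% and 11.4%). Without mock replicate 3, 1 gene was higher at any fold. The median log2 fold change was -0.38, against 0.02 over all genes. The libraries did not overlap for 67 genes in the lower direction (24% of all genes) and for 12 in the higher direction (28.6%). Of the 84 genes lower at day 10, 48 (57.1%) were also lower at day 15, and these were 85.7% of the 56. By L, 56 genes were at or below -0.5 at day 15 (17.6% of all genes) and 7 of these at or below -1 (7.6%), 87 were within 0.5 of mock and 7 were at or above 0.5. The 15 genes lower by over 2-fold and the 7 at or below -1 at day 15 do not exceed the shares of all genes. Under IAA alone the rule had placed all 150 within 0.5 of mock on that day.

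**Figure D4:**
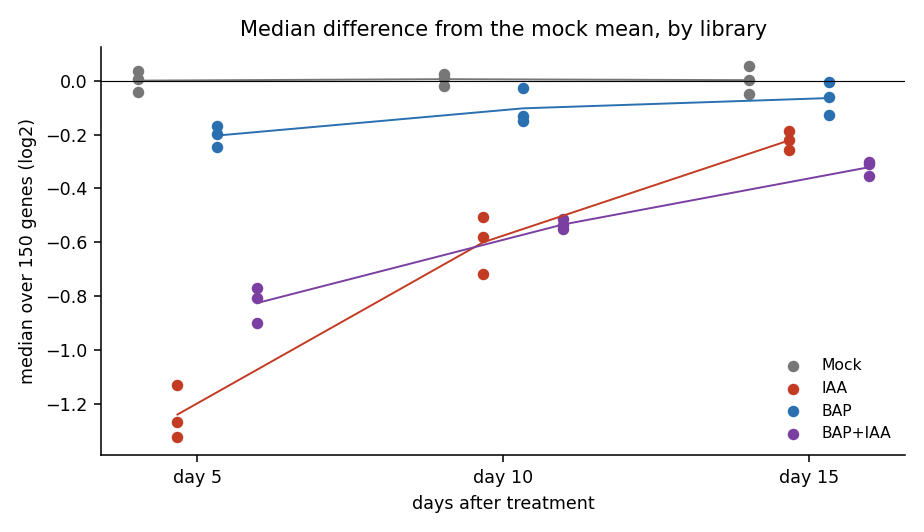
Each point is a library; the vertical axis is the median over the 150 genes of its log2(CPM + 1) minus the mean of the mock libraries of that day, and lines join the means of the 3 libraries of a group. The 3 IAA libraries lie between -1.32 and -1.13 at day 5, -0.72 and -0.50 at day 10 and -0.26 and -0.19 at day 15, and the BAP+IAA libraries between -0.90 and -0.77, -0.55 and -0.51, and -0.35 and -0.30.

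MA_120345g0010 remained low under BAP+IAA. It was 541, 597 and 798 CPM at day 10 and 457, 498 and 833 CPM at day 15, when mock was 2759, 2991 and 2568 and IAA was 1802, 1859 and 2608. Every BAP+IAA library was below every mock and every IAA library on both days. Against mock the log2 fold change was -2.16 ± 0.21 at day 10 (edgeR adjusted p = 2.4e-09) and -2.25 ± 0.21 at day 15 (edgeR adjusted p = 1.2e-09).

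The ABC transporter was 13.7, 11.2 and 9.94 CPM under BAP+IAA at day 10 and 18.5, 32.0 and 9.60 at day 15. All of these were below the mock libraries of the same day. The log2 fold change against mock was -1.61 ± 0.36 at day 10 (edgeR adjusted p = 7.2e-04) and -1.54 ± 0.36 at day 15 (edgeR adjusted p = 8.7e-04). The MLO homolog, which at day 5 had been nearer to mock than to IAA, was 26.9, 35.8 and 19.1 CPM at day 10 and between 34.5 and 37.6 at day 15, with no overlap with mock on either day. Against mock it was at -1.06 ± 0.19 on the log2 scale at day 10 (edgeR adjusted p = 5.4e-05) and at -0.62 ± 0.19 at day 15 (edgeR adjusted p = 0.0094). The day 10 change was not over 2-fold without BAP+IAA replicate 3 (-0.85), and lay at the 2-fold limit without mock replicate 3.

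MA_865199g0010 and MA_180044g0010 were near mock at day 10 of IAA and low under BAP+IAA. In MA_865199g0010 mock was 9.46, 11.5 and 10.2 CPM and IAA 7.43, 10.4 and 12.3 CPM at day 10, whereas BAP+IAA was 2.59, 2.83 and 3.22 CPM at day 10 and 3.36, 4.16 and 1.77 CPM at day 15. Against mock BAP+IAA was at a log2 fold change of -1.85 ± 0.24 at day 10 (edgeR adjusted p = 3.5e-07) and -1.74 ± 0.24 at day 15 (edgeR adjusted p = 8.6e-07). In MA_180044g0010 mock was 198, 156 and 179 CPM and BAP+IAA 48.6, 65.9 and 36.7 CPM at day 10, a log2 fold change of -1.82 ± 0.23 (edgeR adjusted p = 2.2e-07). By day 15 its BAP+IAA libraries held 103, 90.5 and 74.8 CPM against 170, 127 and 123 for mock (log2 fold change -0.69 ± 0.22, edgeR adjusted p = 0.012).

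MA_129306g0010 was again among the lowest, with counts of 4, 0 and 1 under BAP+IAA at day 10 and a log2 fold change of -4.08 ± 0.70 against mock (edgeR adjusted p = 2.4e-05). At day 15 it had 3 counts against 43 in mock, a ratio of 0.0727 with an exact 95% interval of 0.0144 to 0.227 that covers counting error only and not the spread between libraries. MA_103506g0010 was 1.50, 1.16 and 0.681 CPM under BAP+IAA at day 15 and 2.45, 10.0 and 6.87 in mock, a log2 fold change of -2.56 ± 0.64 (edgeR adjusted p = 0.0017). At day 10 its log2 fold change was -1.95 ± 0.69 (edgeR adjusted p = 0.024), and that call was lost without mock replicate 3 (adjusted p = 0.15), BAP+IAA replicate 1 (0.068) or BAP+IAA replicate 3 (0.11). MA_100154g0010 had 0 counts under BAP+IAA on both days against 26 and 22 in mock. With a floor of 3 counts over the group, its summed counts were at least 8.84-fold lower at day 10 and at least 7.04-fold lower at day 15. These figures leave out counting error and the spread between libraries.

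The 2 genes higher than mock by over 2-fold at day 15 were MA_15657g0010 and MA_9976656g0010. MA_15657g0010 was 8.94, 11.8 and 23.4 CPM under BAP+IAA and 5.20, 8.08 and 4.18 in mock, a log2 fold change of 1.30 ± 0.36 (edgeR adjusted p = 0.0046). Without BAP+IAA replicate 3, the highest library, it was 0.77 (adjusted p = 0.090). MA_9976656g0010 was 1.92, 3.27 and 3.74 CPM under BAP+IAA and 1.17, 1.86 and 0.850 in mock, a log2 fold change of 1.15 ± 0.43 (edgeR adjusted p = 0.032). Its call was lost without mock replicate 1 (adjusted p = 0.089) or 3 (0.13) and without BAP+IAA replicate 2 (0.071) or 3 (0.13).

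**Figure D5:**
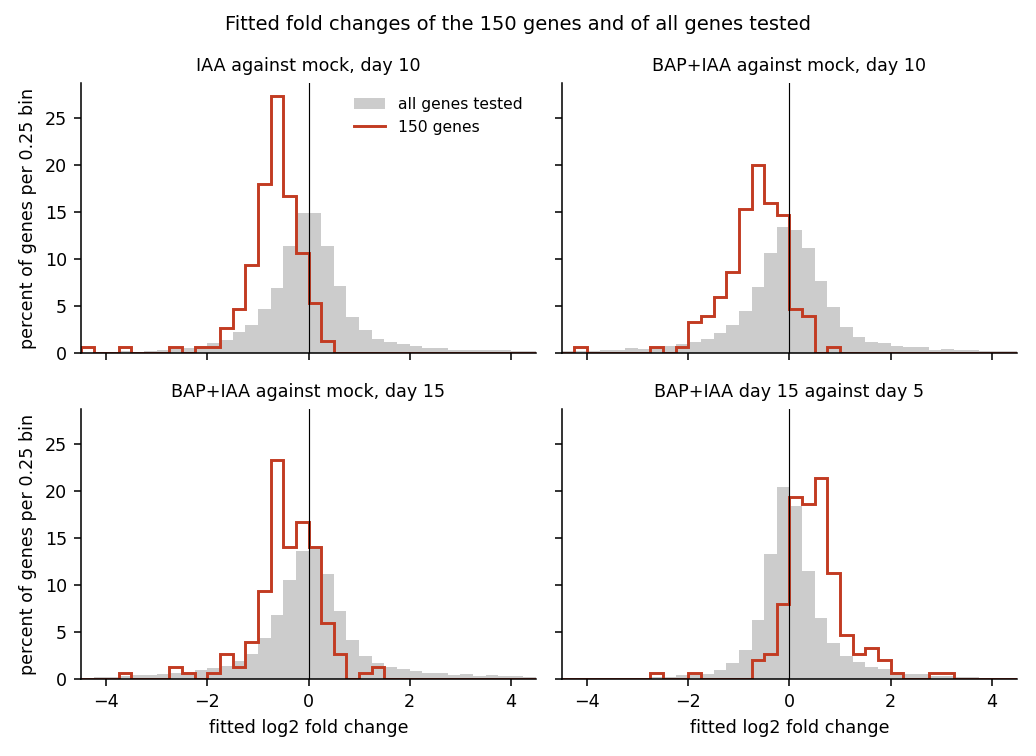
The horizontal axes are fitted log2 fold changes and the vertical axes the percentage of genes in each bin of 0.25; red lines are the 150 genes and grey areas all 38732 genes tested. The 150 genes are shifted to the left against mock, with medians of -0.64 for IAA and BAP+IAA at day 10 and -0.38 for BAP+IAA at day 15, and to the right between day 5 and day 15 of BAP+IAA (0.46).

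A direct comparison of BAP+IAA with IAA was possible at day 10, where neither group had entered the rule. Calls in the 2 directions were similar in number: 20 genes were lower and 17 higher under BAP+IAA (16.1% and 13.9% of all genes), and 4 were lower and 2 higher by over 2-fold (9.96% and 5.54%). The median log2 fold change was 0.02, against 0.01 over all genes. The libraries did not overlap for 22 genes in the lower and 33 in the higher direction (19.1% and 22.8% of all genes). The largest falls were in MA_865199g0010 (-1.85 ± 0.24, edgeR adjusted p = 5.4e-07) and MA_180044g0010, which had 161, 145 and 141 CPM under IAA (-1.62 ± 0.22, edgeR adjusted p = 2.2e-06). MA_120345g0010 (-0.84 ± 0.20, edgeR adjusted p = 0.0016), the MLO homolog (-0.83 ± 0.19, edgeR adjusted p = 0.0014) and MA_10436348g0010 (-0.65 ± 0.17, edgeR adjusted p = 0.0045) were also lower than under IAA, each by under 2-fold.

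The 2 genes that were higher under BAP+IAA than under IAA by over 2-fold at day 10 were MA_12415g0010 and MA_6148761g0010. MA_6148761g0010 was 15.3, 20.3 and 16.8 CPM under BAP+IAA and 5.38, 7.52 and 9.89 under IAA, with no overlap and a log2 fold change of 1.14 ± 0.20 (edgeR adjusted p = 6.2e-05). It was 0.95 without IAA replicate 1. Mock was 10.6, 13.4 and 13.0 CPM, below every BAP+IAA library and above every IAA library, with a log2 fold change of BAP+IAA against mock of 0.50 ± 0.20 (edgeR adjusted p = 0.043). MA_12415g0010 was 6.59, 4.73 and 3.22 CPM under BAP+IAA and 1.15, 2.85 and 1.38 under IAA, a log2 fold change of 1.36 ± 0.39 (edgeR adjusted p = 0.0081), and that call was lost without IAA replicate 1 (adjusted p = 0.052) or BAP+IAA replicate 1 (0.059).

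The last question was whether the genes rose with time under the combined treatment, in which the rule played no part. Between day 5 and day 15, 59 of the 150 genes rose and 2 fell (10.3% and 10.7% of all genes), and 18 rose and 1 fell by over 2-fold (5.37% and 3.1%). The median log2 fold change was 0.46, against 0.01 over all genes tested. All 3 libraries of day 15 lay above all 3 of day 5 for 73 genes (19.4% of all genes) and below them for 7 (17%). Of the 59 genes that rose, 42 (71.2%) were not called lower than mock at day 15 and 17 (28.8%) were. Among all 150 genes, whether they rose or not, 56 were called lower at day 15 (21.4% of all genes tested). Some of the 42 were not called lower at day 10 either, so this split does not count genes that returned to mock. Without 1 library at a time, 46 to 55 genes rose. The genes that fell were 0 without day 5 replicate 1, day 15 replicate 1 or day 15 replicate 3, and 1 without day 5 replicate 3 or day 15 replicate 2.

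Rises were called in both intervals. From day 5 to day 10, 26 genes rose and 3 fell (4.43% and 4.06% of all genes), with 13 rising and 0 falling by over 2-fold (2.03% and 1.59%), and the median was 0.27. From day 10 to day 15, 15 rose and 2 fell (3.57% and 3.18% of all genes), and the median was 0.17. By over 2-fold 3 rose and 0 fell (1.98% and 0.648%), and these rises are near the share of all genes. Over all genes the medians of the 2 intervals were -0.009 and 0. The libraries of the later day lay above those of the earlier day for 49 genes in the former interval (13.2% of all genes) and 31 in the latter (13.7%). They lay below for 8 genes in the former (13.9% of all genes) and 8 in the latter (10.6%). The counts of the former interval were lower without BAP+IAA day 5 replicate 2 (14 rising, 7 by over 2-fold), day 5 replicate 3 (16 and 5), day 10 replicate 1 (17 at any fold) or day 10 replicate 2 (8 by over 2-fold). Falls by over 2-fold numbered 2 without day 5 replicate 1 or day 10 replicate 2 and 1 without day 5 replicate 2, day 10 replicate 1 or day 10 replicate 3. Those of the latter were lower without day 10 replicate 3 or day 15 replicate 2 (3 rising in each case) or day 15 replicate 1 (6), and without day 10 replicate 1 or day 15 replicate 2 a single gene rose by over 2-fold. The genes that fell were 0 without day 10 replicate 3, day 15 replicate 2 or day 15 replicate 3, and 1 without day 10 replicate 1 or day 15 replicate 1. The mean level under BAP+IAA, as log2(CPM + 1), was higher at day 15 than at day 5 in 129 of the 150 genes, against 19366 of the 36285 genes with a group mean of at least 1 CPM.

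MA_10430194g0010 rose in both intervals of BAP+IAA, from 3.46, 2.59 and 1.68 CPM at day 5 through 8.00, 5.25 and 9.31 at day 10 to 22.8, 17.2 and 15.9 at day 15. The libraries of the 3 days did not overlap. The log2 fold change from day 5 to day 15 was 2.84 ± 0.42 (edgeR adjusted p = 1.9e-05), and by day 15 it was close to mock, which had 9.12, 21.4 and 16.4 CPM (0.21 ± 0.37, edgeR adjusted p = 0.68). Its smaller changes were less stable: the rise to day 10 (1.56 ± 0.42, edgeR adjusted p = 0.018) was lost without day 5 replicate 2 (adjusted p = 0.060), day 5 replicate 3 (0.10) or day 10 replicate 3 (0.085). The rise from day 10 to day 15 (1.28 ± 0.38, edgeR adjusted p = 0.041) was lost without any of the 6 libraries concerned, with an adjusted p between 0.051 and 0.15. Under IAA at day 10 it was lower than in mock by over 2-fold (-1.05 ± 0.39, edgeR adjusted p = 0.034), a call that was lost without mock replicate 2 (adjusted p = 0.091), mock replicate 3 (0.10) or any of the IAA replicates 1, 2 and 3 (0.059, 0.053 and 0.14).

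MA_8590327g0010 had counts of 5, 2 and 1 under BAP+IAA at day 5, 13, 27 and 7 at day 10 and 27, 22 and 22 at day 15. Its log2 fold change was 3.21 ± 0.66 from day 5 to day 15 (edgeR adjusted p = 7.6e-04) and 2.59 ± 0.68 from day 5 to day 10 (edgeR adjusted p = 0.015). The latter was lost without day 5 replicate 2 (adjusted p = 0.068), day 5 replicate 3 (0.098) or day 10 replicate 2 (0.10). At day 15 it was nevertheless lower than in mock (-1.23 ± 0.49, edgeR adjusted p = 0.040), where counts were 38, 86 and 45. That call was lost without mock replicate 2 (adjusted p = 0.22), mock replicate 3 (0.059) or any of the BAP+IAA replicates 1, 2 and 3 (0.081, 0.098 and 0.089).

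MA_181g0010 rose late under BAP+IAA. It was 4.96, 4.75 and 4.05 CPM at day 5, 6.29, 3.40 and 5.29 at day 10 and 12.3, 15.4 and 12.7 at day 15. The first pair of days overlapped, and day 15 lay above both, with a log2 fold change of 1.40 ± 0.29 from day 10 to day 15 (edgeR adjusted p = 0.0043). At day 10 it was lower than in mock (-1.08 ± 0.29, edgeR adjusted p = 0.0035), and by under 2-fold without mock replicate 1 (-0.80) or BAP+IAA replicate 2 (-0.86). MA_15657g0010 (1.80 ± 0.37, edgeR adjusted p = 8.4e-04), MA_9976656g0010 (1.96 ± 0.46, edgeR adjusted p = 0.0024) and the ABC transporter (1.70 ± 0.38, edgeR adjusted p = 0.0019) also rose by over 2-fold from day 5 to day 15. Mean mock levels, as log2(CPM + 1), also rose over these days in several of the genes. The mock change was 1.51 in the ABC transporter, 1.11 in MA_10430194g0010, 0.93 in MA_8590327g0010 and 0.85 in MA_181g0010. It was -0.10 in MA_15657g0010 and -0.47 in MA_9976656g0010. The ABC transporter's difference from mock was not called as changing from day 10 to day 15 (0.07 ± 0.50, edgeR adjusted p = 0.99).

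Of the genes that were lowest under BAP+IAA, several were not called as rising. From day 5 to day 15 the change was -0.19 ± 0.20 in MA_120345g0010 (edgeR adjusted p = 0.55) and 0.54 ± 0.26 in MA_865199g0010 (edgeR adjusted p = 0.15). In MA_129306g0010, the gene that fell by over 2-fold, 23 counts at day 5 became 3 at day 15, a ratio of 0.148 with an exact 95% interval of 0.0284 to 0.49 for counting error only, and the gene was no longer called without BAP+IAA day 5 replicate 1 (adjusted p = 0.12), day 15 replicate 1 (0.084) or day 15 replicate 3 (0.11). The MLO homolog fell by under 2-fold from day 5 to day 10 (-0.95 ± 0.19, edgeR adjusted p = 0.0018) and was not called from day 10 to day 15 (0.37 ± 0.19, edgeR adjusted p = 0.27). Over days 5 to 15 it fell (-0.58 ± 0.19, edgeR adjusted p = 0.029), the other gene called in that direction, but the adjusted p was between 0.061 and 0.12 without any single library other than day 5 replicate 2.

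The difference of the BAP+IAA response between day 10 and day 15, each against its own mock, was tested directly. It rose in 3 genes and fell in 0 at any fold (0.86% and 0.534% of all genes). By over 2-fold it rose in 1 gene, MA_509140g0010, which is near the share of all genes (0.7%). At an unadjusted p below 0.05, 25 rose and 2 fell (6.88% and 6.59% of all genes). The median over the 150 genes was 0.22, against -0.01 over all genes. Among fits that left out a day 10 library, 0 genes were called without replicate 1 of mock or replicate 3 of BAP+IAA and 1 without replicate 2 of mock. Among those for day 15, 0 were called without replicate 2 or 3 of mock or replicate 2 of BAP+IAA and 1 without replicate 1 of either group.

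The 150 genes were set beside 139 genes that met the same bounds on BAP but were low under IAA on both day 5 and day 15, with L at or below -1 on each. At day 10 of IAA, 133 of these were lower than in mock by over 2-fold, against 28 of the 150 (8.63% of all genes tested). Under BAP+IAA at day 10 none of the 139 was called lower than under IAA and 80 were called higher at any fold (16.1% and 13.9% of all genes). Their median was 0.77, whereas the 150 genes were at 0.02. Against mock at day 10 the 139 had medians of -1.65 under IAA and -0.97 under BAP+IAA. At day 15 of BAP+IAA their median against mock was -0.93, against -0.38 in the 150 genes, and between days 5 and 15 of BAP+IAA it was 0.15, against 0.46. Both groups were chosen on IAA values, so their order under IAA is how they were made, and comparisons against IAA carry that choice. They were also separated with the mock libraries of day 15, so the gap against mock at day 15 is partly built in. The differences under BAP+IAA were not tested. The 77 genes that met the rule but were not kept had medians of -0.54 at day 10 of IAA, -0.55 at day 10 of BAP+IAA and 0.37 between days 5 and 15 of BAP+IAA. Of them 43 were lower at day 10 of IAA and 0 higher (18.5% and 20.4% of all genes).

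Markers of stem tissues moved in the same comparisons, over the whole list of 4. PaPRX66-like was higher than in mock by 4.83 ± 0.65 on the log2 scale at day 10 of IAA (edgeR adjusted p = 9.4e-07), 5.33 ± 0.65 at day 10 of BAP+IAA (edgeR adjusted p = 1.2e-07) and 4.34 ± 0.69 at day 15 (edgeR adjusted p = 8.6e-06). Its mock libraries held only 0.21 to 0.30 CPM at day 10 and 0.14 to 0.24 CPM at day 15, so these ratios rest on very low mock levels. PaVND4-like was lower under BAP+IAA at day 10 (-2.01 ± 0.26, edgeR adjusted p = 4.9e-07) and day 15 (-3.15 ± 0.28, edgeR adjusted p = 5.6e-10), and was not called at day 10 of IAA. PaCDKB2;2-like, a marker of dividing cells, was higher by 0.57 ± 0.11 at day 10 of IAA (edgeR adjusted p = 1.3e-04), by 0.75 ± 0.11 at day 10 of BAP+IAA (edgeR adjusted p = 2.2e-06) and by 0.35 ± 0.11 at day 15 (edgeR adjusted p = 0.011), and PaAPL-like was not called against mock. From day 5 to day 15 of BAP+IAA, PaAPL-like rose by 0.90 ± 0.26 (edgeR adjusted p = 0.013), while PaVND4-like (-1.78 ± 0.27, edgeR adjusted p = 2.7e-05) and PaCDKB2;2-like (-0.60 ± 0.11, edgeR adjusted p = 2.0e-04) fell and PaPRX66-like was not called. From day 5 to day 10, PaPRX66-like rose by 2.00 ± 0.49 (edgeR adjusted p = 0.0088) and PaVND4-like fell (-1.01 ± 0.26, edgeR adjusted p = 0.014), and from day 10 to day 15 PaCDKB2;2-like fell (-0.48 ± 0.11, edgeR adjusted p = 0.0084). Against IAA at day 10, 1 of the 4 was called under BAP+IAA, PaVND4-like (-1.43 ± 0.26, edgeR adjusted p = 9.0e-05). The summed level of the 4 markers was 116 to 133 CPM in mock, 118 to 144 in IAA and 115 to 139 in BAP+IAA at day 10, and 133 to 141 CPM in mock and 87.9 to 92.3 in BAP+IAA at day 15, and no marker was at 0 in all libraries of a group. Their part in the levels of the 150 genes was not tested.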

How the data were processed

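Libraries were made from poly(A) RNA of the middle hypocotyl. The authors removed ribosomal reads (SortMeRNA), trimmed (fastp), aligned to the first P. abies genome (STAR) and, with HTSeq set to the reverse strand, deposited raw counts per gene, not normalized. How reads with several alignments were treated is not given in the sources used here, so genes with near-identical copies are uncertain. Of 70736 genes, 17643 had no count.

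The 150 genes, the lists and the tests were chosen with earlier results of these data known. Tests used R 4.3.3 with edgeR 4.0.16 (limma 3.58.1): filterByExpr (38732 genes, 99.9% of counts), TMM factors (0.952 to 1.07) and 1 robust quasi-likelihood model with a mean per group over all 36 libraries (24 residual degrees of freedom, common biological variation 20.9%). F-tests were two-sided with Benjamini-Hochberg adjustment over all genes tested. The SE is the size of the log2 fold change divided by the square root of F. The script was tested on simulated data.

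Genes named are the 2 with a description, the lowest and highest 2 called over 2-fold in each comparison with a mean of at least 1 CPM, the 2 with the lowest day 5 value, the 2 with the highest mock CPM at day 5 and those at the edge of the rule. MA_473307g0010 and MA_100154g0010 were added after their values were seen. Libraries of a group never agreed within sampling noise (chi-square per gene of at least 6.92). Same-numbered libraries were not taken as pairs: 7 of 21 correlations were over 0.1, and in 0 comparisons all were. Settings varied were RLE factors, the low-count filter, DESeq2 1.42.0, a block for the replicate number, a stricter adjusted p (0.01), each library left out, and genes chosen on TMM-scaled CPM. The authors' own DESeq2 calls were not used. A genome, its annotation and sequences were not used here.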

Additional observations from a re-analysis of the deposited data

Results flagged for a closer look

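MA_509140g0010 was the gene whose response to BAP+IAA differed between day 10 and day 15 by over 2-fold in the test of the difference itself. It was 3.10, 2.87 and 4.85 CPM in mock and 1.55, 2.02 and 0.977 under BAP+IAA at day 10, with no overlap, and 2.51, 2.28 and 3.12 in mock and 3.30, 3.07 and 2.32 under BAP+IAA at day 15, where the groups overlapped. Relative to mock it was at a log2 fold change of -1.26 ± 0.24 at day 10 (edgeR adjusted p = 9.2e-05) and 0.10 ± 0.23 at day 15 (edgeR adjusted p = 0.77), and the difference was 1.35 ± 0.33 (edgeR adjusted p = 0.038). Under IAA at day 10 it was 1.54, 0.933 and 1.11 CPM (-1.55 ± 0.24 against mock, edgeR adjusted p = 8.7e-06). The difference kept its direction in every alternative run but passed the threshold in 3 of the 12 fits that left out a library: without mock day 10 replicate 1 or 3 the adjusted p was 0.070 or 0.12, without BAP+IAA day 10 replicate 1 or 3 it was 0.056 or 0.14, without mock day 15 replicate 1, 2 or 3 it was 0.084, 0.097 or 0.052, and without BAP+IAA day 15 replicate 1 or 2 it was 0.094 or 0.089. It was 1.35 without the low-count filter (edgeR adjusted p = 0.059), and the day 10 change against mock was under 2-fold without mock replicate 3 (-0.96).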

How the results depend on the processing

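In the counts of genes called, alternatives that moved a count by over 1.5 times were few against mock and more frequent where counts were small. With an adjusted p below 0.01, 59 genes were lower at day 10 of IAA at any fold. Under the same threshold the genes higher than mock under BAP+IAA were 0 at day 10 at any fold, and 1 over 2-fold and 2 at any fold at day 15. Over time in BAP+IAA, 6 rose over 2-fold and 12 at any fold from day 5 to day 10, 0 fell from day 5 to day 15, and 4 rose and 0 fell at any fold from day 10 to day 15, and 0 genes changed their response between days 10 and 15. Without the low-count filter, 0 genes changed that response. DESeq2 gave 3 over 2-fold and 6 at any fold for it, and 2 genes higher at day 10 of BAP+IAA at any fold. With the replicate block, 2 genes were higher at day 10 of BAP+IAA and 4 fell from day 10 to day 15 at any fold. With RLE size factors no count moved by that much. Genes chosen on TMM-scaled CPM shared 123 of the 150 (82% of each list). They gave 1 higher over 2-fold and 2 at any fold at day 10 of BAP+IAA, 1 higher over 2-fold at day 15, and 4 higher over 2-fold under BAP+IAA than under IAA.

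Leaving out 1 library at a time, IAA at day 10 had 22 to 31 genes lower than mock over 2-fold (69 to 81 at any fold) and 0 higher in every fit. BAP+IAA at day 10 had 29 to 32 lower (72 to 76 at any fold) and 0 to 1 higher (0 to 1 at any fold), the 1 without mock replicate 1. BAP+IAA at day 15 had 12 to 17 lower (47 to 54) and 0 to 2 higher (1 to 4), with 0 without BAP+IAA replicate 3 and 1 at any fold without mock replicate 3. Against IAA at day 10, 4 to 6 were lower (15 to 24) and 0 to 3 higher (13 to 16), with 0 without IAA replicate 1. From day 5 to day 10 of BAP+IAA 5 to 11 rose (14 to 20) and 0 to 2 fell (2 to 3). From day 5 to day 15, 17 to 22 rose (46 to 55) and 0 to 1 fell (0 to 2), with 0 without day 5 replicate 1 or day 15 replicate 1 or 3. From day 10 to day 15, 1 to 3 rose (3 to 13) and 0 to 3 fell at any fold. The change of response between days 10 and 15 was called in 0 to 3 genes (0 to 4), 3 of them without BAP+IAA day 10 replicate 2. The cause of these moves was not tested, except that fits with fewer libraries have less power by construction. The median over the 150 genes kept its sign in every comparison and alternative run, and no called gene named in the text reversed.

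The replicate numbers, given in the labels, were not taken as pairs, since no source says what they share. Correlations between same-numbered libraries ran from -0.074 to 0.26, and every one of the 6 libraries matched best with its own number in 3 of 7 comparisons. Those 3 were BAP+IAA against mock at day 15, BAP+IAA against IAA at day 10 and BAP+IAA at day 15 against day 10. In IAA against mock at day 10, 2 of the 6 libraries matched best with their own number. There the block left 29 genes lower over 2-fold against 28 without it. That comparison is not among the 3, so this count does not show what the block does in them. The median of all genes moved by at most 0.020 on the log2 scale between TMM and RLE factors and by at most 0.055 against total counts. Depth limits the genes of low level: 2 of the 150 had 0 counts in every BAP+IAA library at day 15. With such genes set at a floor of 3 counts over the group, the median of BAP+IAA against mock at day 15 was -0.36.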
